A study of Mus musculus with 8 samples.

Results

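Potassium channel genes were taken as all genes whose symbol starts with Kcn, the family name of potassium channel subunits and some of their partners. A gene was included where at least 1 probe set of the array carried that symbol and no other, and where a gene had several such probe sets the brightest one, by its mean across arrays, was used. This gave 90 genes on 97 probe sets, and 63 of the 90 passed the level filter, which asked that at least 2 of the 8 arrays exceed that array's median over all named genes. The filter was passed by 11712 of 22180 named genes in all. The 27 genes below it were left out of the comparisons and are named at the end.

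The study profiled the medial prefrontal cortex (mPFC) of mice on Affymetrix expression arrays, with 2 arrays in each of 4 groups. The first group, the NAC pull-downs, held ribosome-bound RNA of mPFC cells after CAV2-Cre, a canine adenovirus that carries Cre recombinase and enters at axon terminals, was injected in NAC. The second, the VTA pull-downs, held the same kind of RNA after injection in VTA, and the NAC inputs and VTA inputs held unpurified RNA from mPFC tissue of mice with the matching injection. All 4 groups therefore received the virus, and the pull-downs were made with a GFP-binding reagent that captures tagged ribosomes. The labels give no strain, age, sex, transgene or promoter. Nor do they trace the 2 arrays of a group to separate animals or pools, so the p-values below rest on a spread between arrays that may be technical.

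Potassium channels let potassium leave or enter the cell along its gradient and so set the resting potential, the width of the action potential and the rate of firing. Voltage-gated (Kv) channels open on depolarization, calcium- and sodium-activated channels follow those ions, inward rectifiers and 2-pore-domain channels act near rest, and auxiliary subunits change the gating and transport of the pore-forming ones. In the cortex, pyramidal neurons, fast-spiking interneurons and glia use different sets of these subunits, and astrocytes use inward rectifiers to clear potassium from the extracellular space.

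All values are the deposited values on the log2 scale, and differences are log2 differences with the standard error (SE) of a linear model over all 8 arrays, tested with limma. Benjamini-Hochberg adjustment covered the 11712 genes. A gene was called where the adjusted p was under 0.05, and arrays carry no read depth, so their number limits the precision. The array medians over named genes lay between 5.86 and 5.98. Correlations between arrays were 0.981 to 0.991 within groups and 0.973 to 0.988 between them. The marker lists were compared between pull-downs and inputs with the deposited values, averaged over NAC and VTA. There 32.0% of all 11712 genes were called lower and 9.60% higher. Lower were 7 of 8 measured astrocyte genes, 8 of 9 oligodendrocyte genes, 7 of 8 microglial genes and 7 of 9 genes of GABAergic interneurons. None of these was higher. Of 6 measured genes of glutamatergic projection neurons, 2 were higher and 2 lower, the latter a share near that of all genes. The marker lists were not tested under other scalings of the arrays. In bulk RNA, fewer cells of a type and less RNA per cell cannot be told apart.

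Setting pull-downs against inputs addresses which channel transcripts stand higher or lower in ribosome-bound RNA of labelled cells than in unpurified RNA of the whole tissue. With the deposited values, averaged over NAC and VTA, 28 of the 63 potassium channel genes fell in pull-downs and 3 rose. The 3 that rose were Kcnj4, Kcng2 and Kcnn1. Together 49.2% of the family was called, against 41.5% of all genes. The falls made up 44.4% of the family, against 32.0% of all 11712 genes, and the rises 4.76%, against 9.60% of all genes. The median difference was -0.17 over the 63 genes and -0.11 over all tested genes. The 28 falls include Kcnj8, which passed the level filter only through inputs. Without Kcnj8, 27 of 62 genes fell (43.5%), with a median of -0.17. Kcnh4, among the falls, met the filter through its inputs, and Kcng2, among the rises, through its pull-downs, as described below. All 4 pull-downs lay below all 4 inputs for 26 genes (41.3%, against 24.8% of all genes) and above them for 1, Kcnmb4 (1.59%, against 7.91%). Leaving out the first VTA input left 15 falls, and leaving out either NAC input left 17. The rises numbered 1 without the second NAC pull-down and 5 without the first VTA pull-down.

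Over all genes the share of falls was also lower without each of the inputs just named. The family's counts depended on how the arrays were scaled as well. Centring set each array on its median over the 11712 tested genes, not over all named genes as in the level filter. Centring on other genes was not tried. With centred arrays, 9 genes were lower (14.3%, against 15.0% of all genes) and 9 higher (14.3%, against 21.3%). After quantile normalization 18 were lower (28.6%, against 23.0%) and 7 higher (11.1%, against 14.1%). Centring moved the median of all genes to 0.03, and that of the family to -0.04. A family-wide direction therefore did not hold under every scaling, and the genes below are described by whether their own call did. The 10 genes called under every setting tried, including each array left out in turn, were Kcnj16, Kcnj2, Kcnk10, Kcnt2, Kcnip1, Kcnh5, Kcnv1, Kcnc2 and Kcnip2, which fell, and Kcnj4, which rose.

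**Figure D1:**
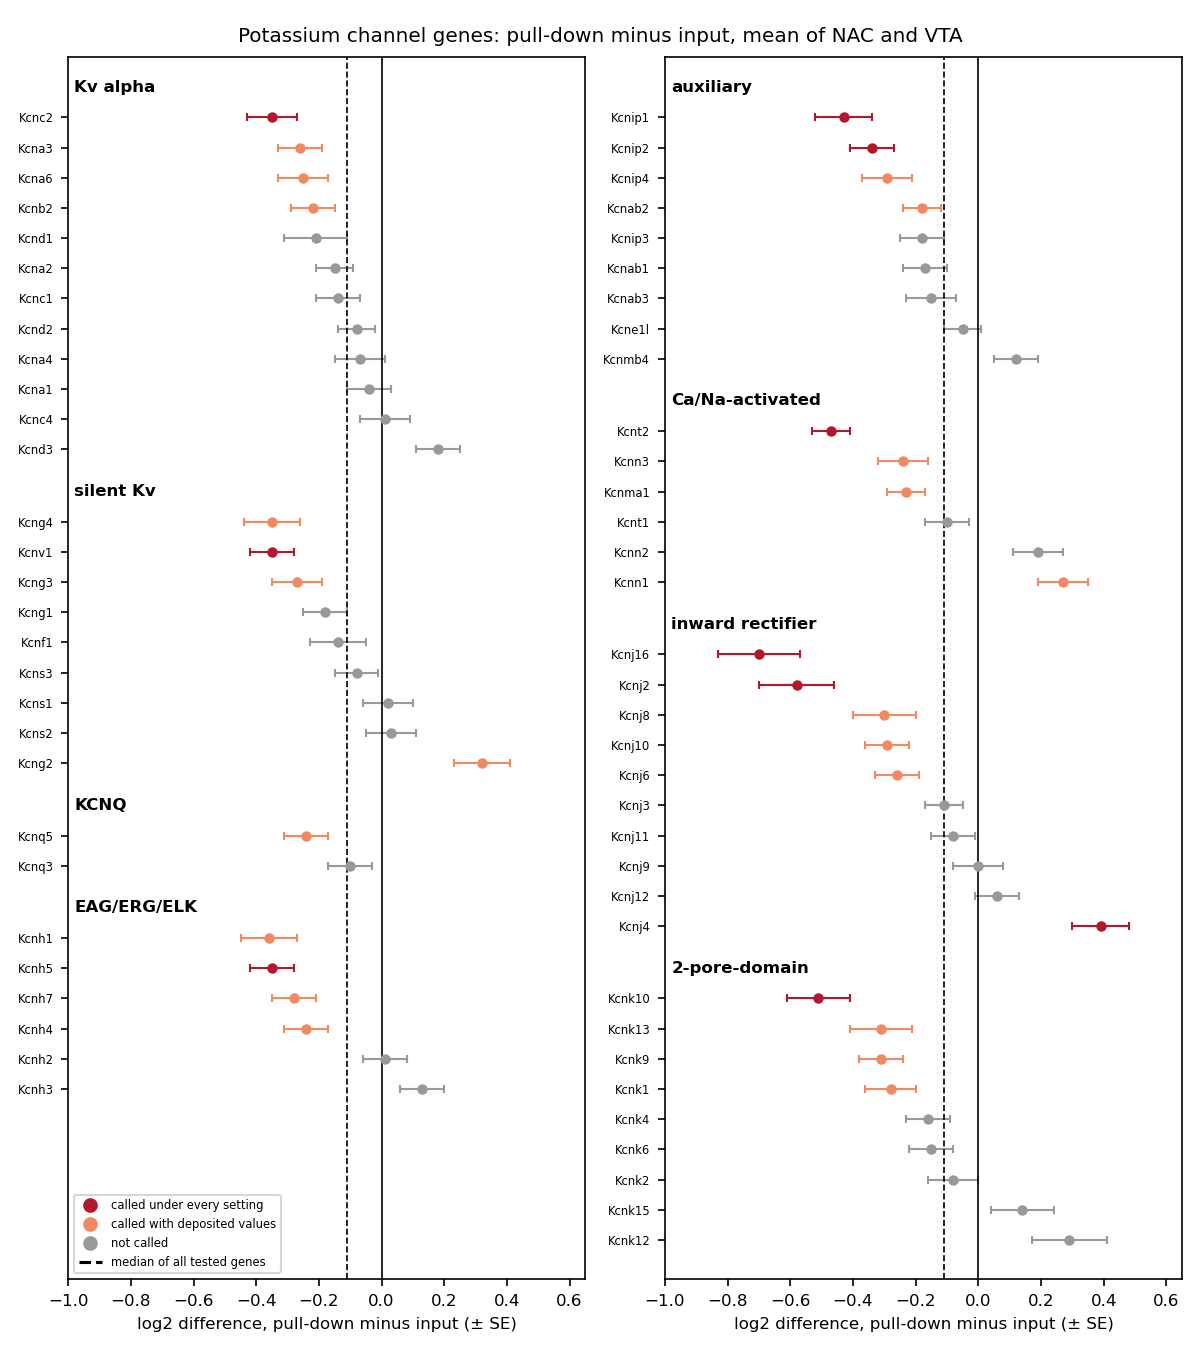
Log2 difference of pull-down minus input, mean of NAC and VTA, for each of the 63 potassium channel genes by class, with bars of 1 SE. Dark red marks the 10 genes called under every setting, orange the other genes called with the deposited values and grey the genes not called. The dashed line is the median of all tested genes at -0.11, and most points lie left of 0.

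The promoters of 3 of these 10 genes are printed: Kcnj4, the gene that rose, and Kcnj2 and Kcnt2 as examples of those that fell. Each has a single annotated start, as Kcnip2 and Kcnh5 also have. Each window runs from 250 bases before the start to 50 after it on the gene's own strand, as RefSeq gives it for GRCm38.p6. The windows lie at chr15:79505192-79505491 on the minus strand for Kcnj4, chr11:111065914-111066213 on the plus strand for Kcnj2 and chr1:140245468-140245767 on the plus strand for Kcnt2. Capitals mark matches on either strand to 4 motifs. The GC box was searched as GGGCGG and the cAMP response element as TGACGTCA. The CCAAT box was searched by the letters of its name, and the TATA box as TATAAA.
Kcnj4: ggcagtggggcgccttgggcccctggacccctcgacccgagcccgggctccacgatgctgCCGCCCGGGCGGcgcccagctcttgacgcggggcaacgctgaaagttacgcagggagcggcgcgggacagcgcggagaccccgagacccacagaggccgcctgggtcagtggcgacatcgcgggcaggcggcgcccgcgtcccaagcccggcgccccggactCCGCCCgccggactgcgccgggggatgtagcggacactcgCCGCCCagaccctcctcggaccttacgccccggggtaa
Kcnj2: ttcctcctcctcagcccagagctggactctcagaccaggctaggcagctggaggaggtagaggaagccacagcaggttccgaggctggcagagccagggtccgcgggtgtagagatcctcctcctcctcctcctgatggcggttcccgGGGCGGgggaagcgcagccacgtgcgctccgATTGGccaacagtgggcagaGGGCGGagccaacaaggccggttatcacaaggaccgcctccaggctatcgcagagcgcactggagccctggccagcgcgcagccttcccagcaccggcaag
Kcnt2: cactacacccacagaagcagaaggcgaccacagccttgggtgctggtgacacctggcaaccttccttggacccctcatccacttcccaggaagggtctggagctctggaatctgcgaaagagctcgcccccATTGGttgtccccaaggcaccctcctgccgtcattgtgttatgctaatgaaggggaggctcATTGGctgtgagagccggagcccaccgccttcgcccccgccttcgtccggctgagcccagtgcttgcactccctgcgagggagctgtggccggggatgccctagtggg
The Kcnj4 window was 76% G or C, with 41 CpG pairs and 4 GC boxes. The Kcnj2 window was 66.7% G or C, with 18 CpG pairs, 2 GC boxes and 1 CCAAT box, and the Kcnt2 window was 62.7% G or C, with 12 CpG pairs and 2 CCAAT boxes. Of the 63 genes, 48 matched a window, 71 windows in all. A GC box stood in 52.1% of these and in 35.7% of all 32851 windows, a CCAAT box in 33.8% and 37.4%, a TATA box in 4.23% and 13.6%, and a cAMP response element in 0% and 1.79%. A match describes these letters and not a site in use.

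Inward rectifiers of the Kcnj family pass potassium more easily into the cell than out of it. Of 10 measured, 5 fell in pull-downs (50%, against 32.0% of all genes), Kcnj8 among them, and 1 rose (10%, against 9.60%). Kcnj16, whose product pairs with that of Kcnj10 in astrocytes, had 7.24 and 7.01 in NAC pull-downs and 7.36 and 7.07 in VTA pull-downs, against 7.59 and 8.04 in NAC inputs and 8.15 and 7.71 in VTA inputs. Every pull-down lay below every input. It fell by 0.70 (SE 0.13, adjusted p = 0.00308), the largest difference among the 63 genes in this comparison. Kcnj2, a strong inward rectifier that holds the resting potential, had 6.61 and 6.05 in NAC pull-downs and 6.55 and 6.42 in VTA pull-downs, against 7.00 and 6.76 in NAC inputs and 7.14 and 7.04 in VTA inputs. Its groups did not overlap either, and it fell by 0.58 (SE 0.12, adjusted p = 0.00421).

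Kcnj4, another strong inward rectifier of forebrain neurons, moved the other way. It had 8.66 and 8.83 in NAC pull-downs and 9.08 and 9.23 in VTA pull-downs, against 8.45 and 8.68 in NAC inputs and 8.39 and 8.70 in VTA inputs. The VTA pull-downs stood above every other array, while 1 NAC pull-down lay within the range of the inputs. Kcnj4 rose by 0.39 (SE 0.09, adjusted p = 0.00865), and by 0.53 with centred arrays. Its chromosome 15 promoter is the GC-rich one printed above.

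Kcnj10, the main potassium-clearing channel of astrocytes, had 8.77 and 8.75 in NAC pull-downs and 8.94 and 8.81 in VTA pull-downs, against 9.05 and 9.18 in NAC inputs and 9.10 and 9.11 in VTA inputs. All pull-downs lay below all inputs, and it fell by 0.29 (SE 0.07, adjusted p = 0.00844), a call lost with centred arrays. Kcnj6, a subunit of the channels that open with G protein-coupled receptors, fell by 0.26, while the other such subunits Kcnj3 and Kcnj9 had -0.11 and 0.00 and did not pass. Kcnj3 had 9.30 and 9.29 in NAC pull-downs and 9.30 and 9.37 in VTA pull-downs, against 9.39 and 9.46 in NAC inputs and 9.42 and 9.43 in VTA inputs. Its pull-downs all lay below its inputs, by less than the test could call. Kcnj8, the pore of ATP-sensitive channels of mural cells, had a difference of -0.30 and was called. It passed the level filter only through 1 NAC and 1 VTA input, so its lower pull-downs are tied to how it was chosen and are no separate finding. Kcnj11, the neuronal one, had -0.08 and did not pass. Both calls, of Kcnj6 and Kcnj8, were lost with centred arrays.

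**Figure D2:**
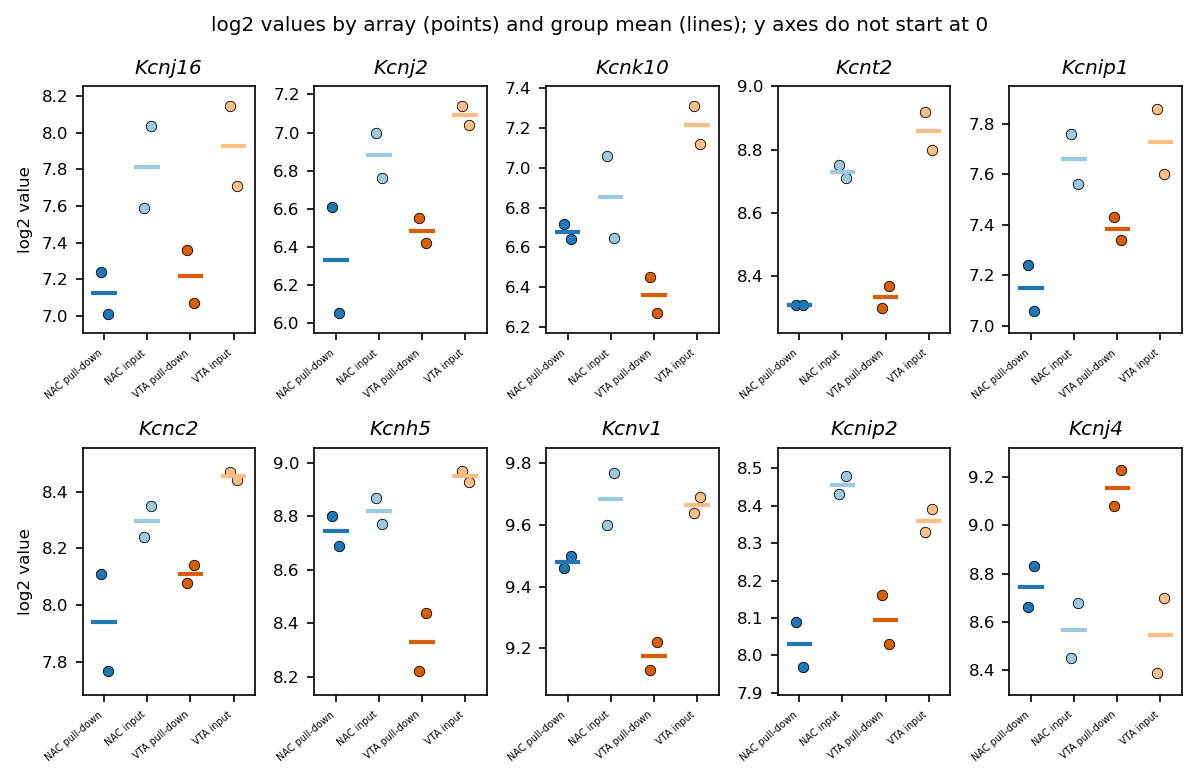
Log2 value of each array (points) and group mean (lines) for the 10 genes called in pull-down minus input under every setting, ordered by the size of the difference, with 2 arrays in each group. For Kcnt2 all 4 pull-downs lie at 8.30 to 8.37 and all 4 inputs at 8.71 to 8.92, and Kcnj4 is the 1 gene with higher pull-downs.

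The calcium- and sodium-activated channels gave 3 falls (50%, against 32.0% of all genes) and 1 rise (16.7%, against 9.60%) among 6 genes. Kcnt2, a sodium-activated channel, had 8.31 and 8.31 in NAC pull-downs and 8.30 and 8.37 in VTA pull-downs, against 8.75 and 8.71 in NAC inputs and 8.92 and 8.80 in VTA inputs. The pull-downs were nearly level and far below the inputs, and Kcnt2 fell by 0.47 (SE 0.06, adjusted p = 0.000943). Its relative Kcnt1 had -0.10 and did not pass. Kcnma1, the pore of the large-conductance channel that shortens spikes, fell by 0.23 and Kcnn3, a small-conductance channel of the afterhyperpolarization, by 0.24, and both calls were lost with centred arrays. A second probe set of Kcnma1 had 0.19 and did not pass.

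The small-conductance subunit Kcnn1 had 7.71 and 7.75 in NAC pull-downs and 7.33 and 7.61 in VTA pull-downs, against 7.39 and 7.25 in NAC inputs and 7.43 and 7.28 in VTA inputs. Both NAC pull-downs stood above every input, and 1 VTA pull-down lay within the range of the inputs. Kcnn1 rose by 0.27 (SE 0.08, adjusted p = 0.0264), and by 0.40 with centred arrays. Its call was lost without 4 of the 8 arrays and when all named genes were tested. The small-conductance subunit Kcnn2 had 0.19 and did not pass with the deposited values.

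The 9 measured 2-pore-domain channels of the Kcnk family, which carry leak current, gave 4 falls and no rise. The falls were 44.4%, against 32.0% of all genes, of which 9.60% rose. Kcnk10, a leak channel opened by stretch and fatty acids, had 6.72 and 6.64 in NAC pull-downs and 6.45 and 6.27 in VTA pull-downs, against 7.06 and 6.65 in NAC inputs and 7.31 and 7.12 in VTA inputs. The VTA pull-downs lay well below the VTA inputs, while a NAC pull-down and a NAC input overlapped. Kcnk10 fell by 0.51 (SE 0.10, adjusted p = 0.00367). Its relatives Kcnk2 and Kcnk4 had -0.08 and -0.16 and did not pass.

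Kcnk1, a weak rectifier also found in astrocytes, had 9.89 and 9.80 in NAC pull-downs and 9.57 and 9.80 in VTA pull-downs, against 10.08 and 9.94 in NAC inputs and 10.08 and 10.06 in VTA inputs, with no overlap. It fell by 0.28 (SE 0.08, adjusted p = 0.0158). Kcnk9, an acid-sensitive leak channel, had 8.13 and 8.06 in NAC pull-downs and 8.01 and 8.08 in VTA pull-downs, against 8.39 and 8.50 in NAC inputs and 8.25 and 8.38 in VTA inputs. It fell by 0.31 (SE 0.07, adjusted p = 0.00665), as did Kcnk13, a channel of microglia, by 0.31 (SE 0.10, adjusted p = 0.0296). These 3 calls were lost with centred arrays.

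Of 12 pore-forming Kv subunits of the Kcna, Kcnb, Kcnc and Kcnd families, 4 fell and none rose. The falls were 33.3%, near the 32.0% of all genes, of which 9.60% rose. Kcnc2, a subunit of the fast channels that let interneurons fire at high rates, had 8.11 and 7.77 in NAC pull-downs and 8.08 and 8.14 in VTA pull-downs, against 8.24 and 8.35 in NAC inputs and 8.47 and 8.44 in VTA inputs. The groups did not overlap, and it fell by 0.35 (SE 0.08, adjusted p = 0.00887). Kcnc1, of the same fast-spiking channels, had -0.14 and did not pass. Kcnc4, which forms rapidly inactivating channels, had 8.44 and 8.41 in NAC pull-downs and 8.35 and 8.66 in VTA pull-downs, against 8.49 and 8.45 in NAC inputs and 8.32 and 8.53 in VTA inputs, and its groups overlapped.

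The Shaker-type subunits of the Kcna family, which sit in axons, gave 2 falls among 5 genes (40%, against 32.0% of all genes). These were Kcna3 by 0.26 and Kcna6 by 0.25, both lost with centred arrays. The other probe set of Kcna6 had -0.08 (adjusted p = 0.661), and the call was also lost with the mean of its probe sets. Kcna1 had 9.67 and 9.72 in NAC pull-downs and 9.62 and 9.83 in VTA pull-downs, against 9.76 and 9.78 in NAC inputs and 9.70 and 9.76 in VTA inputs, and its difference of -0.04 did not pass. The probe sets of Kcna4 disagreed, since the one used had -0.07 and did not pass and the other fell by 0.67 (adjusted p = 0.00325). Kcnb2, a delayed rectifier, fell by 0.22, a call lost with centred arrays. None of the 3 Kcnd genes, which form the dendritic A-type current, was called with the deposited values. Kcnd2 had 10.19 and 10.10 in NAC pull-downs and 10.21 and 10.28 in VTA pull-downs, against 10.18 and 10.22 in NAC inputs and 10.30 and 10.38 in VTA inputs. Kcnd3 had 0.18 with the deposited values and 0.31 with centred arrays, where it was called (adjusted p = 0.0129).

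Silent Kv subunits make no channel alone and change the properties of Kcnb channels. Of 9 measured, 3 fell (33.3%, near the 32.0% of all genes) and 1 rose (11.1%, near 9.60%). Kcnv1 had 9.46 and 9.50 in NAC pull-downs and 9.13 and 9.22 in VTA pull-downs, against 9.60 and 9.77 in NAC inputs and 9.64 and 9.69 in VTA inputs. Its groups did not overlap, the VTA pull-downs were the lowest, and it fell by 0.35 (SE 0.07, adjusted p = 0.00392). Kcng4, near the array medians, had 5.78 and 5.92 in NAC pull-downs and 5.63 and 5.97 in VTA pull-downs, against 6.09 and 6.34 in NAC inputs and 6.09 and 6.17 in VTA inputs. It fell by 0.35 (SE 0.09, adjusted p = 0.0147), a call lost with centred arrays.

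Kcng3 had 7.10 and 7.29 in NAC pull-downs and 7.11 and 7.26 in VTA pull-downs, against 7.32 and 7.39 in NAC inputs and 7.64 and 7.50 in VTA inputs. It fell by 0.27 (SE 0.08, adjusted p = 0.0168), and this call too was lost with centred arrays. Kcng2 rose by 0.32 (SE 0.09, adjusted p = 0.0176), with 5.92 and 6.31 in NAC pull-downs and 6.40 and 6.33 in VTA pull-downs, against 5.86 and 5.93 in NAC inputs and 5.91 and 6.00 in VTA inputs. All 4 inputs lay near the array medians, 1 NAC pull-down lay among them, and the call was lost without 3 of the 8 arrays and when all named genes were tested. Of the Kcng2 inputs only the second VTA one, at 6.00, exceeded its array's median of 5.94. Kcng2 therefore met the level filter through its pull-downs, so its rise is tied to how it was chosen and is no separate finding. None of the 3 Kcns genes passed, among them Kcns2 with 7.37 and 7.40 in NAC pull-downs and 7.30 and 7.55 in VTA pull-downs, against 7.36 and 7.46 in NAC inputs and 7.37 and 7.30 in VTA inputs.

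The Kcnh family holds the EAG, ERG and ELK channels, and 4 of its 6 measured members fell (66.7%, against 32.0% of all genes). Kcnh5, an EAG channel, had 8.80 and 8.69 in NAC pull-downs and 8.22 and 8.44 in VTA pull-downs, against 8.87 and 8.77 in NAC inputs and 8.97 and 8.93 in VTA inputs. The VTA pull-downs stood apart below all other arrays, and Kcnh5 fell by 0.35 (SE 0.07, adjusted p = 0.00554). Kcnh1, the other EAG channel, had 8.87 and 8.89 in NAC pull-downs and 8.36 and 8.70 in VTA pull-downs, against 9.04 and 9.20 in NAC inputs and 8.98 and 9.05 in VTA inputs. It fell by 0.36 (SE 0.09, adjusted p = 0.00886), with no overlap.

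Kcnh7, an ERG channel, had 9.80 and 9.74 in NAC pull-downs and 9.80 and 9.86 in VTA pull-downs, against 10.05 and 9.96 in NAC inputs and 10.24 and 10.08 in VTA inputs. It fell by 0.28 (SE 0.07, adjusted p = 0.00968). Kcnh4, an ELK channel near the array medians, fell by 0.24. All its inputs exceeded their array's median, but of its pull-downs only the first NAC one did, at 6.11 against 5.92. It therefore met the level filter through its inputs, so its fall is tied to how it was chosen and is no separate finding. The calls of Kcnh1, Kcnh4 and Kcnh7 were lost with centred arrays. Kcnh3, another ELK channel, had 0.13 with the deposited values, which did not pass, and 0.26 with centred arrays, which did (adjusted p = 0.0183). Of the KCNQ subunits of the M-current, which restrains repetitive firing, Kcnq5 fell by 0.24, a call lost with centred arrays, and Kcnq3 had -0.10 and did not pass. A second probe set of Kcnq5 had 0.15 and did not pass.

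Auxiliary subunits gave no rise (against 9.60% of all genes) and 4 falls (44.4%, against 32.0%) among 9 genes. Of the 4 falls, 3 were in the Kcnip family, calcium-binding proteins that bring Kcnd channels to the surface and set their inactivation. The Kcnd genes themselves were not called. Kcnip1 had 7.24 and 7.06 in NAC pull-downs and 7.43 and 7.34 in VTA pull-downs, against 7.76 and 7.56 in NAC inputs and 7.86 and 7.60 in VTA inputs. Kcnip2 had 8.09 and 7.97 in NAC pull-downs and 8.16 and 8.03 in VTA pull-downs, against 8.43 and 8.48 in NAC inputs and 8.33 and 8.39 in VTA inputs. Neither gene had a pull-down above an input, and Kcnip1 fell by 0.43 (SE 0.09, adjusted p = 0.00411) and Kcnip2 by 0.34 (SE 0.07, adjusted p = 0.00413).

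Kcnip4 had 8.92 and 8.95 in NAC pull-downs and 8.78 and 8.78 in VTA pull-downs, against 9.15 and 9.04 in NAC inputs and 9.37 and 9.02 in VTA inputs. It fell by 0.29 (SE 0.08, adjusted p = 0.0212), a call lost with centred arrays and after quantile normalization. Kcnab2, a cytoplasmic partner of Kcna channels, had 9.62 and 9.64 in NAC pull-downs and 9.65 and 9.57 in VTA pull-downs, against 9.75 and 9.76 in NAC inputs and 9.80 and 9.88 in VTA inputs. It fell by 0.18 (SE 0.06, adjusted p = 0.0444), and the call was lost without any 1 of the 8 arrays. Kcnmb4, the neuronal beta subunit of the Kcnma1 channel, had 8.26 and 8.26 in NAC pull-downs and 8.29 and 8.23 in VTA pull-downs, against 8.20 and 8.06 in NAC inputs and 8.16 and 8.13 in VTA inputs. It was the 1 gene with all pull-downs above all inputs, and its difference of 0.12 did not pass (adjusted p = 0.154). Its second probe set was higher by 0.32 (adjusted p = 0.0233), and the first passed with centred arrays at 0.26.

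Genes higher with centred arrays and not with the deposited values were Kcnd3, Kcnh3, Kcnj12, Kcnk12, Kcnmb4 and Kcnn2, beside the 3 that were higher in both. Of these 6, Kcnd3, Kcnk12, Kcnmb4 and Kcnn2 also passed after quantile normalization. The 9 falls that remained under centring were those of Kcnc2, Kcnh5, Kcnip1, Kcnip2, Kcnj16, Kcnj2, Kcnk10, Kcnt2 and Kcnv1, all of them among the 28 with the deposited values. Of those 28, Kcna3, Kcna6, Kcnab2, Kcnb2, Kcng3, Kcnip4, Kcnj6, Kcnk13, Kcnn3 and Kcnq5 were not called after quantile normalization.

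**Figure D3:**
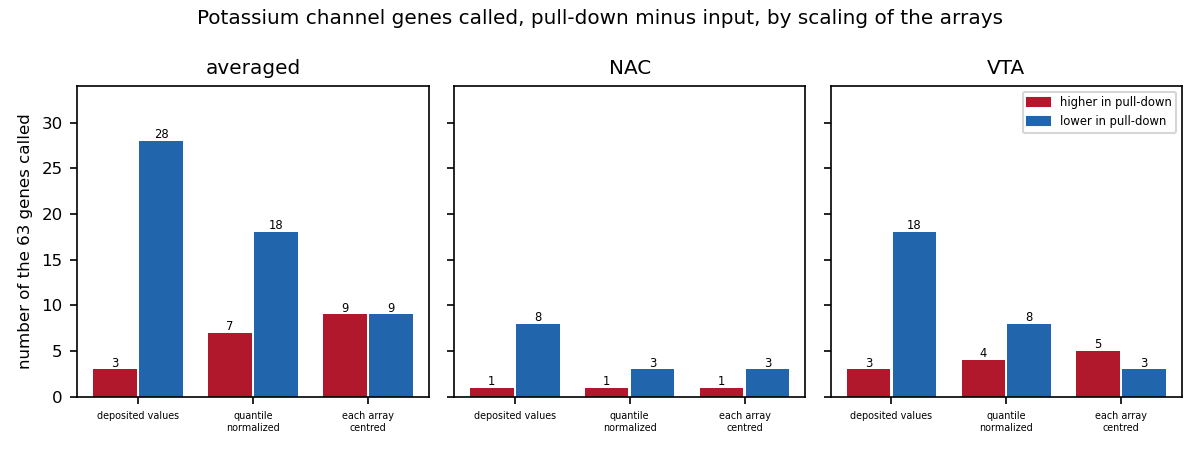
Number of the 63 potassium channel genes called higher (red) and lower (blue) in pull-down minus input, averaged and for each target, under 3 scalings of the arrays. In the averaged comparison 28 genes are lower with the deposited values, 18 after quantile normalization and 9 with each array centred.

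Of 10 genes listed for a known source outside projection neurons, 9 were measured, and 6 of the 9 fell. The median of the 9 was -0.29. The falls were those of Kcnj10, Kcnj16 and Kcnk1 of astrocytes, Kcnj8 of mural cells, Kcnk13 of microglia and Kcnc2 of fast-spiking interneurons. Kcnk6 of microglia and Kcnc1 and Kcns3 of fast-spiking interneurons were not called. Kcnn4 of microglia lay below the level filter. Without Kcnj8, which passed the filter only through inputs, 5 of 8 fell with a median of -0.28. Among the other 54 genes, 22 fell and 3 rose, with a median of -0.16. Over all genes 32.0% fell and 9.60% rose, with a median of -0.11. The calls of Kcnj10, Kcnk1, Kcnk13 and Kcnj8 were lost with centred arrays. The summed unlogged level of the measured astrocyte markers was 6020 to 6510 in pull-downs and 8280 to 8980 in inputs. That of the interneuron markers was 5140 to 5600 in pull-downs and 5780 to 6320 in inputs. Their part in the falls of the channel genes was not tested.

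Within each target the same question was asked with 2 pull-downs against 2 inputs. In NAC, 8 of the 63 genes fell and 1 rose, which is 12.7% and 1.59%, against 8.01% and 4.34% of all genes (14.3% against 12.3% in either direction). The pull-downs lay below the inputs without overlap for 37 of the 63 genes (58.7%, against 39.5% of all genes) and above them for 6 (9.52%, against 22.8%). The median was -0.13 over the family and -0.06 over all genes. The falls were those of Kcnj16 (-0.69), Kcnip1 (-0.51), Kcnt2 (-0.42), Kcnip2 (-0.42), Kcna3 (-0.36), Kcnj10 (-0.35), Kcnk9 (-0.34) and Kcng1 (-0.34), with adjusted p from 0.0219 for Kcnt2 to 0.0461 for Kcna3. Kcna3, a subunit also known from lymphocytes and microglia, had 8.60 and 8.71 in NAC pull-downs and 9.13 and 8.91 in NAC inputs, with 8.81 and 8.75 in VTA pull-downs and 8.93 and 8.94 in VTA inputs. Kcnn1 was the 1 gene that rose in NAC, by 0.41 (SE 0.12, adjusted p = 0.0452).

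None of the 9 calls in NAC held under every array left out: the falls numbered 0 without the second NAC pull-down or either NAC input and 5 without the first NAC pull-down. Without either VTA input, which changes only the shared estimate of spread, they numbered 4. The rise of Kcnn1 was lost without any 1 of the 4 NAC arrays or either VTA input. The share of all genes called in NAC was lower in each of these fits too. Centring left 3 falls, those of Kcnip1, Kcnip2 and Kcnt2 (4.76%, against 5.49% of all genes), and the rise of Kcnn1 (1.59%, against 7.73%).

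In VTA, 18 of the 63 genes fell and 3 rose, which is 28.6% and 4.76%, against 25.9% and 5.44% of all genes (33.3% against 31.3% in either direction), so the family's share of calls was close to that of the array as a whole. Without overlap, 39 genes had lower pull-downs (61.9%, against 53.0% of all genes) and 6 higher ones (9.52%, against 16.0%). The median was -0.21 over the family and -0.15 over all genes. Kcnk10 had the largest difference, -0.85 (SE 0.14, adjusted p = 0.00397), followed by Kcnj16 at -0.71, Kcnh5 at -0.62 (SE 0.10, adjusted p = 0.00412) and Kcnj2 at -0.60. Kcnt2 (-0.52), Kcnv1 (-0.49), Kcnh1 (-0.48) and Kcnip4 (-0.41) came next. The rises were those of Kcnj4 at 0.61 (SE 0.13, adjusted p = 0.00956), Kcng2 at 0.41 and Kcnn2 at 0.34. All 4 calls in the Kcnh family, Kcnh1, Kcnh4, Kcnh5 and Kcnh7, were falls, among 6 measured genes (66.7%, against 25.9% of all genes). The limits given above for how Kcng2 and Kcnh4 met the level filter apply to their VTA calls too.

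Without the first VTA input none of the 63 genes was called in VTA by limma, and without the second VTA input 7 fell. Without the first VTA pull-down 6 fell. The rises numbered 1 without the second VTA pull-down, the second VTA input or either NAC input. The share of all genes called in the same direction was lower in each of these fits too. With centred arrays 3 fell, Kcnk10, Kcnh5 and Kcnt2 (4.76%, against 9.25% of all genes), and 5 rose, Kcnj4, Kcng2, Kcnn2, Kcnd3 and Kcnmb4 (7.94%, against 14.7%).

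The NAC and VTA comparisons share no arrays. Of the 63 genes, 44 had a negative difference in both (69.8%, against 53.4% of all genes) and 9 a positive one in both (14.3%, against 22.3%). The correlation of the 2 sets of differences, given as a description, was 0.63 over the 63 genes and 0.69 over all tested genes, which share array scaling and are not independent. Kcnj16 and Kcnt2 were called in both.

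**Figure D4:**
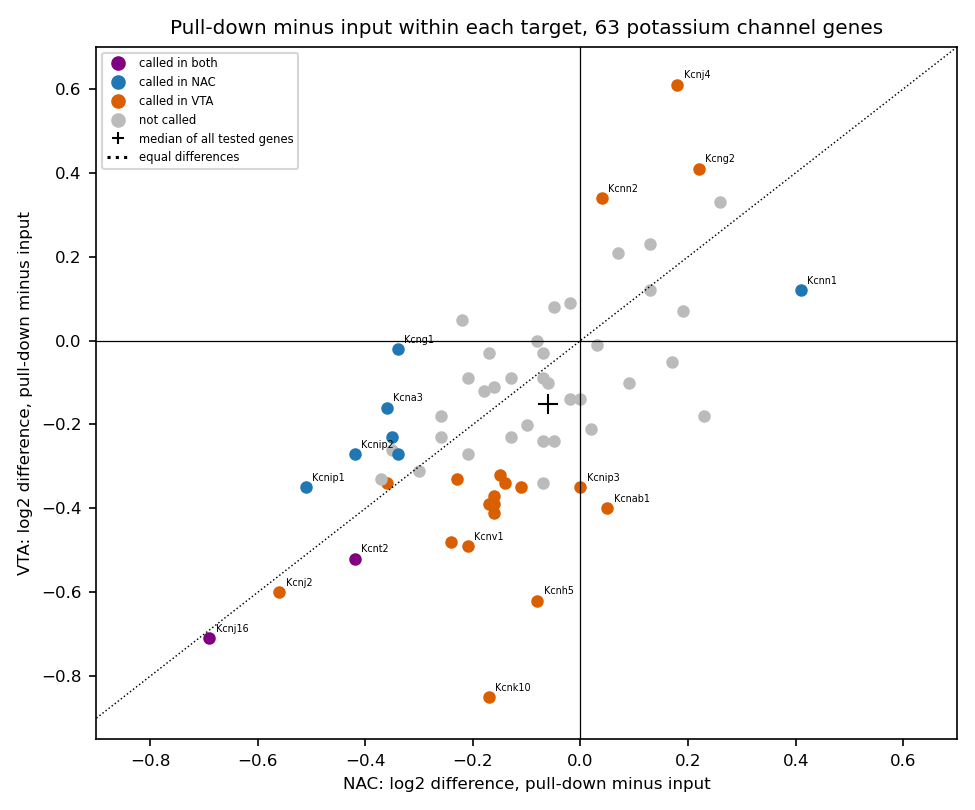
Log2 difference of pull-down minus input in NAC (x axis) and in VTA (y axis) for the 63 potassium channel genes, with colours for calls and a cross at the medians of all genes, -0.06 and -0.15. Kcnj16 and Kcnt2, called in both, lie near the line of equal differences, while Kcnk10 and Kcnh5 lie far below it and Kcnj4 above it.

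The direct comparison of VTA with NAC pull-downs asked whether the labelled cells of the 2 projections differ. It called 1 of the 63 genes higher, Kcng1, and 1 lower, Kcnab1, which is 1.59% each, against 0.418% and 2.05% of all genes (3.17% against 2.47% in either direction). Kcng1, a silent subunit, had 7.41 and 7.39 in VTA pull-downs, against 6.99 and 6.90 in NAC pull-downs. The inputs had 7.37 and 7.47 in VTA and 7.34 and 7.23 in NAC, so the NAC pull-downs were the low ones. The difference was 0.46 (SE 0.09, adjusted p = 0.0336), and 0.51 with centred arrays (adjusted p = 0.0163).

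Kcnab1, a beta subunit that speeds inactivation of Kcna channels, had 7.98 and 7.88 in VTA pull-downs, against 8.39 and 8.30 in NAC pull-downs. Its inputs had 8.33 and 8.33 in VTA and 8.26 and 8.34 in NAC, so here the VTA pull-downs stood apart. The difference was -0.41 (SE 0.09, adjusted p = 0.0495), which was lost with centred arrays (adjusted p = 0.0855) and after quantile normalization (adjusted p = 0.0738). Both calls were lost without any 1 of the 8 arrays, with adjusted p of up to 0.16 for Kcng1 and 0.228 for Kcnab1.

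Kcnn2 had 7.73 and 8.03 in VTA pull-downs, against 7.45 and 7.36 in NAC pull-downs, with 7.58 and 7.51 in VTA inputs and 7.36 and 7.37 in NAC inputs. Its difference of 0.48 (SE 0.11) did not pass with the deposited values (adjusted p = 0.0562) and passed with centred arrays at 0.53 (adjusted p = 0.0196). Kcnip3, a calcium-binding partner of Kcnd channels that also acts as a transcriptional repressor, had 9.16 and 9.24 in VTA pull-downs, against 9.52 and 9.63 in NAC pull-downs, with 9.55 and 9.56 in VTA inputs and 9.50 and 9.65 in NAC inputs. Its difference of -0.37 (SE 0.10) did not pass (adjusted p = 0.0794). Kcnh5 at -0.41, Kcnj4 at 0.41, Kcns1 at -0.37, Kcnh1 at -0.35, Kcnk10 at -0.32, Kcnv1 at -0.31 and Kcnq3 at -0.24 had an unadjusted p under 0.05 and did not pass after adjustment.

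**Figure D5:**
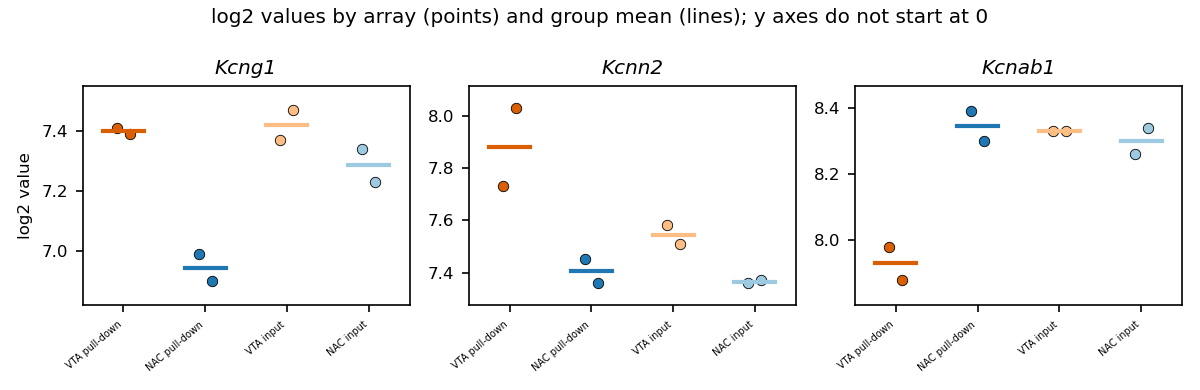
Log2 value of each array (points) and group mean (lines) for Kcng1, Kcnn2 and Kcnab1, with VTA groups left of NAC groups and 2 arrays in each group. The NAC pull-downs of Kcng1 lie at 6.90 and 6.99, below all other arrays, and the VTA pull-downs of Kcnab1 lie at 7.88 and 7.98, below all other arrays.

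Without overlap, the VTA pull-downs lay above the NAC pull-downs for 12 genes (19%, against 15.4% of all genes) and below them for 16 (25.4%, against 28.8%), shares near those of all genes. By limma, 0.418% of all genes were called higher in VTA than in NAC pull-downs and 2.05% lower. Beside these shares, 4 of 5 measured markers of layer 5 pyramidal tract neurons, the deep-layer cells with subcerebral axons, were called higher. They were Pou3f1 at 0.99, Chst8 at 0.88, Bcl11b at 0.73 and Fezf2 at 0.51. Their summed unlogged level was 2730 to 2950 in VTA pull-downs, 1820 to 1850 in NAC pull-downs and 1900 to 1990 in the inputs. Summed microglial markers were at 1900 to 2000 in VTA pull-downs and 2540 to 2740 in NAC pull-downs, with 2610 to 2770 in VTA inputs and 3890 to 3980 in NAC inputs. Of 8 measured microglial markers, 3 were lower in VTA than in NAC pull-downs, C1qa, C1qb and C1qc at -0.83, -0.78 and -0.56, and 1 was higher, Fcrls at 0.71. The same genes differed between the inputs, at -0.91, -0.88, -0.83 and 0.71. Of 8 measured astrocyte markers 1 was lower in VTA pull-downs, Gfap at -1.22, with -0.84 between the inputs. The part of any of these lists in the values of the channel genes was not tested.

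Between VTA and NAC inputs limma called none of the 63 genes, against 1.50% of all genes, 0.120% higher and 1.38% lower, and 2 had an unadjusted p under 0.05. These were Kcnk10 at 0.36 and Kcnk6, a 2-pore-domain channel of macrophages, at -0.32, named after their values were seen. Without overlap, VTA inputs lay above NAC inputs for 18 genes (28.6%, against 34.3% of all genes) and below them for 6 (9.52%, against 12.4%). A test of the difference in enrichment (the VTA pull-down minus its input, less that of NAC) also called none of the 63 genes in limma, against 0.0683% of all genes, 0.00854% higher and 0.0598% lower, and 7 had an unadjusted p under 0.05. Kcnk10 at -0.68 and Kcnh5 at -0.54 were the largest of these, followed by Kcnab1 at -0.44, Kcnj4 at 0.42, Kcns1 at -0.41, Kcnip3 at -0.35 and Kcng1 at 0.32. None of the 63 genes was therefore shown to be enriched differently in the 2 projections, although several were called in 1 target and not in the other. No other test was run on these differences than limma's, which called none with a variance trend either.

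Genes that work with potassium channels without bearing the family name were taken from a list of 26, of which 20 were measured. In pull-down minus input averaged over targets, 9 of the 20 fell and 1 rose, with a median of -0.13, against falls of 32.0%, rises of 9.60% and a median of -0.11 over all genes. Centred arrays were tried on this list after seeing the data. There 4 fell, Cntnap2, Dlg2, Abcc9 and Lrrc55 (20%, against 15.0% of all genes). The 5 that rose were Vapa, Vapb, Amigo1, Dlg4 and Gnb5 (25%, against 21.3%), and the median was 0.00. After quantile normalization 6 fell (30%, against 23.0% of all genes) and 3 rose (15%, against 14.1%), with a median of -0.06. The values below are those of the deposited scaling. The rise was that of Vapa, an endoplasmic reticulum protein that holds Kcnb channels at membrane contacts, at 0.39 (SE 0.06, adjusted p = 0.00172). The falls held Dpp6, a transmembrane partner of Kcnd channels, at -0.22, and Cntnap2, Cntn2 and Adam22, which gather Kcna channels on axons, at -0.31, -0.19 and -0.22. The scaffold genes Dlg1 and Dlg2 had -0.26 and -0.32, and Ank3, which anchors Kcnq channels at the axon initial segment, had -0.26. Abcc9, the regulatory subunit that joins Kcnj8 in mural cells, had -0.38, and Lrrc55, an auxiliary subunit of the Kcnma1 channel, had -0.39. None of the 20 was called between the VTA and NAC pull-downs, where 2.47% of all genes were called in either direction.

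The 27 genes below the level filter were Kcna5, Kcna7 and Kcna10 of the Shaker type, Kcnh6 and Kcnh8, Kcnq1, Kcnv2, the inward rectifiers Kcnj1, Kcnj5, Kcnj14 and Kcnj15, and the leak channels Kcnk5, Kcnk7, Kcnk16 and Kcnk18. They also held Kcnn4, Kcnu1, the auxiliary subunits Kcne1, Kcne2, Kcne3, Kcne4, Kcnmb1, Kcnmb2 and Kcnmb3, the regulator Kcnrg, and the noncoding RNAs Kcnd3os and Kcnq1ot1. Just inside the filter, Kcnj8 exceeded the median on 2 arrays and had 5.50 and 5.59 in NAC pull-downs and 5.67 and 5.70 in VTA pull-downs, against 5.75 and 6.03 in NAC inputs and 6.14 and 5.76 in VTA inputs. Just outside it, Kcnmb1, Kcnj14, Kcna5 and Kcnk16 exceeded it on 1 array, with means over the arrays of 5.53, 5.77, 5.38 and 5.49. Both of the arrays on which Kcnj8 exceeded the median were inputs. It was the 1 gene of the 63 with no pull-down above the median, while each gene had some input above it. Kcnh4 exceeded the median on only 1 pull-down and Kcng2 on only 1 input, fewer than the 2 arrays the filter asked for.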

How the data were processed

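Expression was measured on 8 Affymetrix arrays. The values are log2 values of 41345 probe sets, as deposited by the authors, who used Transcriptome Analysis Console per the submitters' processing notes. Its version, background correction and normalization: not given in the sources used here. Groups follow the source name in the labels, since the inputs carry the same description text as the pull-downs. The platform annotation gave 1 gene symbol for 23521 probe sets, several for 1814 and none for 16010. All 90 Kcn genes were found by Entrez identifier, with the same symbol, in RefSeq's GRCm38.p6 gene table, and 4 more probe sets that name a Kcn gene beside another symbol were left out. The genes, lists and tests were chosen with earlier results of these data known.

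Group means were estimated from the 8 arrays together in limma 3.58.1 (lmFit, eBayes; R 4.3.3), with 4 residual and 6.07 prior degrees of freedom. Two-sided p-values were Benjamini-Hochberg adjusted across 11712 genes in each of 6 comparisons, at a threshold of 0.05. Arrays carry no read depth, so their number limits the precision. The fit was tested on simulated data. By rule, all 8 values are printed for the called genes with the largest differences, at most 10 in a comparison, and for the gene of each subfamily of 3 or more with the highest mean. Kcnj8 was added for its place at the filter and Kcnmb4 for its groups. Alternatives were array scaling, the level filter, the choice of probe set, a variance trend, replicate blocks and leaving out each array.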

Additional observations from a re-analysis of the deposited data

How the results depend on the processing

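Of 63 calls of a gene in a comparison, 10 held under every alternative, all of them in the averaged pull-down comparison, and none reversed: of 946 alternative values 622 kept the call and 324 lost it. In pull-down minus input averaged over targets, 3 genes were higher and 28 lower, against 9 and 9 with centred arrays, 7 and 18 after quantile normalization, and 15 lower of the 90 family genes with all named genes tested, of which 13 were among the 28. In NAC, 1 was higher and 8 lower, against 3 lower with centred arrays and 3 after quantile normalization, 0 and 0 with all named genes tested, and 0 higher with a replicate block of pull-down with its input, which lost Kcnn1, Kcna3 and Kcnk9 and gained Kcnj2. In VTA, 3 were higher and 18 lower, against 5 and 3 with centred arrays, 8 lower after quantile normalization and 5 lower of the 90 with all named genes tested, of which 4 were among the 18. Between the pull-downs, 1 was higher and 1 lower, against 2 and 0 with centred arrays and after quantile normalization, 0 and 0 with all named genes tested, 2 and 4 with a variance trend, and 0 lower with the mean of a gene's probe sets. After quantile normalization 6.86% of all genes were lower in NAC and 15.8% in VTA. With all named genes tested, 10.8% of them were lower in the averaged comparison and 6.11% in VTA. Between the pull-downs, 0.82% of all genes were higher with centred arrays and 0.751% after quantile normalization. With a variance trend 0.965% were higher and 3.58% lower. The cause was not tested. Testing all named genes adds genes both to the adjustment and to the estimate of spread that limma shares across genes, and the 2 were not separated.

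Leaving out 1 array at a time gave 1 to 5 genes higher and 15 to 27 lower in the averaged comparison (15 without the first VTA input and 17 without either NAC input), 0 to 1 higher and 0 to 9 lower in NAC, and 0 to 3 higher and 0 to 18 lower in VTA. Between pull-downs it gave 0 to 1 higher and 0 to 2 lower, and no gene between inputs or in the difference of enrichment. In the averaged comparison the share of all genes called was lower too, in every such fit but that without the second VTA pull-down. These fits have fewer arrays, and a lone array is assumed to vary like the other groups.

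Deviations of same-numbered arrays correlated at 0.30 and -0.02 between pull-down and input in NAC and VTA, and at -0.13 and 0.22 between targets in pull-downs and inputs, so the numbers were not taken as pairs. A replicate block of the numbers across targets called 1 gene higher and 0 lower between pull-downs, and the crossed numbers, added after seeing the data, 2 and 2.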

Other observations

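Genes below the level filter were tested once, in a fit over all named genes, and are given as values near or under the array medians. Kcnmb2, an inactivating beta subunit of the Kcnma1 channel, had -0.56 in pull-down minus input averaged over targets (limma adjusted p = 0.0124) and -0.77 in VTA (adjusted p = 0.027), with a mean level of 5.36. Kcnmb3, another such beta subunit, had 0.28 (adjusted p = 0.0357) and Kcnrg had -0.30 (adjusted p = 0.0418) in the averaged comparison, at mean levels of 4.79 and 3.38. Kcnj15, an inward rectifier, had 0.55 in VTA (adjusted p = 0.0454), at a mean level of 5.14. The other 23 of the 27 genes were not called in any of the 6 comparisons.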
